A study of Mus musculus with 18 samples.

Results

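Plasmacytoid dendritic cells (pDCs) are bone marrow-derived dendritic cells that sense nucleic acids in endosomes and release type I interferon, and they have long been studied in lupus because of that interferon. Their fate depends on the E protein E2-2, the product of Tcf4, which drives the pDC programme by binding E-box sequences, while the inhibitor Id2 blocks E proteins and favours conventional dendritic cells. The 8 genes described here are pDC identity genes, taken by symbol: Siglech and Cd209d (surface lectins), Tcf4, Spib, Bcl11a and Runx2 (transcription factors), Cox6a2 (a cytochrome c oxidase subunit) and Pacsin1 (an adaptor of membrane trafficking). All 8 were present in both expression tables, among 19780 genes for Lin-Sca-1+c-Kit+ cells (LSK, the marrow compartment holding stem and early progenitor cells) and 18428 genes for common myeloid progenitors (CMPs).

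RNA was sequenced from cells sorted from the marrow of female NZBW/F1 mice and of C57BL/6 controls. NZBW/F1, which spontaneously develops lupus, is a cross of NZB and NZW mice, which the study bought as NZB/OlaHsd and NZW/OlaHsd. LSK came from 4 groups of 3 samples each: prediseased NZBW/F1 at 12 weeks (F1-P), lupus NZBW/F1 with proteinuria at 28 to 36 weeks (F1-L), and C57BL/6 of the same ages (B6-Y and B6-O). CMPs came from 3 F1-P and 3 F1-L samples. F1-L and F1-P mice therefore differed in age as well as disease stage, which cannot be told apart within this strain, and F1-L and B6-O mice differed in both strain and disease. The study's account of its CMP heatmap reads as several mice per replicate, and for LSK the sources used here do not say whether a sample was 1 mouse or a pool, so p-values measure the spread between these samples. Both sorts removed cells positive for B220, a marker that pDCs carry, and for CD11b, Gr-1, Ter119 and CD16/32, so the sort would leave mature pDCs out, and likewise B220-positive B cells and Gr-1-positive neutrophils.

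Each library held 23772252 to 28493747 gene reads in LSK and 20001328 to 24761060 in CMPs. Values are reads scaled to an effective library size (CPM), and the LSK and CMP tables were scaled separately, so no test was made between them. At these depths 1 read was worth 0.0310 to 0.0584 CPM. In sorted bulk RNA, a lower value can mean fewer expressing cells or less RNA per cell, and these cannot be told apart.

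The labelled populations were checked against genes of the gate. Kit ranged from 257 to 657 CPM in LSK and from 416 to 668 CPM in CMPs. Ly6a, which encodes Sca-1, ranged from 35.5 to 113 CPM in C57BL/6 LSK, from 293 to 879 CPM in NZBW/F1 LSK and from 1.14 to 6.70 CPM in CMPs. The stem cell factor Hlf ranged from 106 to 390 CPM in LSK and from 11.1 to 31.6 CPM in CMPs. The study's methods describe the CMP sort as positive for Sca-1 as well as CD34, whereas Ly6a was far lower in CMPs than in LSK, so the gate behind the CMP label could not be settled here.

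Some libraries stood apart before any comparison of the pDC genes. Immunoglobulin genes took 16.8% to 36.6% of the reads of NZBW/F1 LSK libraries, against 0.301% to 4.76% in C57BL/6 LSK and at most 0.255% in CMPs. The 8 neutrophil markers, led by S100a9, summed to 10478 CPM in B6-O replicate 3 against 1674 and 809 CPM in the other two B6-O samples, and to 5256 CPM in B6-Y replicate 2 against 486 and 469 CPM in the other B6-Y samples. Among CMP libraries they summed to 6187 and 8100 CPM in F1-P replicates 2 and 3 but to 299 CPM in F1-P replicate 1. None of the 12 B cell, 8 neutrophil or 6 monocyte markers was at 3 or fewer reads in any library. F1-L replicate 2 of LSK was the lowest library of its group for 7 of the 8 members, all but Bcl11a, as given below.

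Promoter sequences of 6 of the 8 genes were found in RefSeq (GRCm38.p6) and those of Siglech, Spib and Pacsin1 are shown, because these genes varied most alike across LSK samples. Each is the 250 bases before the RefSeq start site, 5′ to 3′ on the gene's strand. Capitals mark matches to the E-box CANNTG, the letters bound by E proteins such as E2-2, which read the same on both strands. The windows lie at chr7:55767934-55768183 (plus strand) for Siglech, chr7:44532072-44532321 (minus strand) for Spib and chr17:27684989-27685238 (plus strand) for Pacsin1.
Siglech: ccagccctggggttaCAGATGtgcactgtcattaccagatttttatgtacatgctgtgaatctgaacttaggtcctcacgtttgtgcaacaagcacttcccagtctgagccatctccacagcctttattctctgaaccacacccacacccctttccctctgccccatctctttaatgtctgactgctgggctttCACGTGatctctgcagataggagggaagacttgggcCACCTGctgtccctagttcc
Spib: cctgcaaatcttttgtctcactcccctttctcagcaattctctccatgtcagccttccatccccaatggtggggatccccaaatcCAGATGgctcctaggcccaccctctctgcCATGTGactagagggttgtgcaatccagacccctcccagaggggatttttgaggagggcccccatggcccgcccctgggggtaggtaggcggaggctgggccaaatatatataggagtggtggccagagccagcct
Pacsin1: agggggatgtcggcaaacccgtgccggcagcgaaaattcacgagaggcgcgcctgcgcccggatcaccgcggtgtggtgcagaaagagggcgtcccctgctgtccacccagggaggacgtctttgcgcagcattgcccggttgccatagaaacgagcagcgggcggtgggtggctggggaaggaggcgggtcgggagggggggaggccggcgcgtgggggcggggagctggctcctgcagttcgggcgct
The Siglech window held 3 matches, the Spib window 2 and the Pacsin1 window 0. Of 32851 promoter windows of this length, 66.2% held at least 1 match and 12.2% held 3 or more. The windows of Bcl11a, Runx2 and Cd209d held 1 match each. One of the Siglech matches, 20 bases before the start, reads CACCTG, a form found on either strand in 17.2% of the windows. The RUNX core TGTGGT, searched on both strands, was found once each in the windows of Siglech, Runx2, Pacsin1 and Cd209d and in 14.05% of all windows. These matches describe letters and were not tested for binding.

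The members lie on 5 chromosomes of the GRCm38 assembly. Siglech (ENSMUSG00000051504, chr7:55768178-55778925), Spib (ENSMUSG00000008193, chr7:44525993-44532071) and Cox6a2 (ENSMUSG00000030785, chr7:128205435-128206387) share chromosome 7. Bcl11a (ENSMUSG00000000861) lies at chr11:24078056-24174123, Runx2 (ENSMUSG00000039153) at chr17:44495987-44814797, Pacsin1 (ENSMUSG00000040276) at chr17:27655509-27711482, and Cd209d (ENSMUSG00000031495) at chr8:3871824-3878555. Tcf4 (ENSMUSG00000053477) lies on chromosome 18. Counts were made per gene, so splice forms are not resolved, and the annotated gene start of Pacsin1 lies upstream of the RefSeq start used for its window.

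Siglech, a receptor that marks mouse pDCs and their precursors, was highest in young C57BL/6 LSK. Its values were 53.1, 60.8 and 49.3 CPM in B6-Y, 10.9, 9.73 and 26.8 CPM in B6-O, 18.0, 19.1 and 18.9 CPM in F1-P, and 48.9, 7.75 and 50.0 CPM in F1-L. All F1-P and B6-O samples lay below all B6-Y samples, while F1-L was split, with 2 samples at the B6-Y level and replicate 2 below every F1-P sample. In order of the means, B6-Y (54.4 ± 5.83, SD, n = 3) was followed by F1-L (35.5 ± 24.1), F1-P (18.6 ± 0.562) and B6-O (15.8 ± 9.54), and the ranges of each pair of neighbours overlapped. In CMPs Siglech was 2.16, 9.53 and 14.1 CPM in F1-P and 1.36, 0.568 and 1.69 CPM in F1-L. Every CMP F1-L sample was below every CMP F1-P sample, and F1-P replicate 1 lay near the F1-L samples.

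Cd209d, a C-type lectin of the DC-SIGN family, was near the limit of detection and was left out by the filter on low values. It ranged from 0.0412 to 1.20 CPM, or 1 to 36 reads, in LSK, with its highest value in B6-O replicate 3. In CMPs it was at 0 reads in all 3 F1-L samples, which allows up to 0.136 to 0.155 CPM per sample for counting error, and at 1, 11 and 12 reads in F1-P.

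Tcf4 was expressed throughout. It read 250.05, 229.9 and 163 CPM in B6-Y, 164, 155 and 99.4 CPM in B6-O, 181, 226 and 203 CPM in F1-P, and 162, 139 and 181 CPM in F1-L. The 4 LSK groups formed a continuous range in which the means ran from B6-Y (214 ± 45.5, n = 3) through F1-P (203 ± 22.6) and F1-L (161 ± 20.9) to B6-O (139.5 ± 35.0), and no pair of neighbours was separate. In CMPs Tcf4 was 102, 127 and 149.7 CPM in F1-P and 107.5, 86.3 and 107.5 CPM in F1-L, with overlapping groups.

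Spib encodes an Ets factor of B cells and pDCs. Its values were 31.3, 50.6 and 23.8 CPM in B6-Y, 10.6, 3.03 and 22.8 CPM in B6-O, 12.9, 16.0 and 19.7 CPM in F1-P, and 57.2, 9.86 and 16.7 CPM in F1-L. All B6-O and F1-P samples were below all B6-Y samples, and the F1-L samples included both the highest LSK value and 1 below every F1-P sample. The means ran from B6-Y (35.3 ± 13.8) through F1-L (27.9 ± 25.6) and F1-P (16.2 ± 3.42) to B6-O (12.1 ± 9.95), with neighbours overlapping. CMPs gave 3.89, 30.8 and 34.9 CPM in F1-P and 0.773, 0.568 and 1.393 CPM in F1-L. Here too every F1-L sample was below every F1-P sample.

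Bcl11a, a zinc finger factor needed for lymphoid and pDC development, separated the strains more than the ages. In B6-Y it was 253, 212 and 217 CPM and in B6-O 213, 215 and 159 CPM. In F1-P it was 179, 115 and 129 CPM and in F1-L 137, 154 and 162 CPM. F1-P lay below B6-Y in every sample, F1-L overlapped B6-O through B6-O replicate 3 alone, and the means ran from B6-Y (227 ± 22.2) through B6-O (196 ± 31.97) and F1-L (151 ± 12.7) to F1-P (141 ± 33.6). CMPs gave 276, 190.0 and 174 CPM in F1-P and 237, 232 and 212 CPM in F1-L, which overlapped.

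Runx2, a Runt factor known in osteoblasts and in pDC maturation, was higher in every B6-Y LSK sample than in any other LSK sample. Single values were 297, 309 and 242 CPM in B6-Y, 197, 171 and 153 CPM in B6-O, 159.9, 141 and 149 CPM in F1-P, and 182, 101.1 and 191 CPM in F1-L. The lowest B6-Y sample stood above the highest B6-O sample, and B6-O (174 ± 22.4), F1-L (158 ± 49.4) and F1-P (149.9 ± 9.48) overlapped one another. In CMPs it was 54.9, 87.2 and 157 CPM in F1-P and 69.3, 31.5 and 67.8 CPM in F1-L, again overlapping. The 7 osteoblast and stromal markers in the tables summed to 12.4 to 60.5 CPM in LSK and 6.30 to 30.2 CPM in CMPs, and their part in Runx2 was not tested.

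The other 2 members were low. Cox6a2 was 16.8, 17.9 and 24.8 CPM in B6-Y, 9.02, 8.18 and 19.1 CPM in B6-O, 13.5, 8.58 and 6.70 CPM in F1-P and 11.3, 2.39 and 6.06 CPM in F1-L. Pacsin1 was 8.65, 15.8 and 10.8 CPM in B6-Y, 4.05, 2.84 and 7.46 CPM in B6-O, 5.94, 7.35 and 6.07 CPM in F1-P and 10.3, 4.89 and 5.97 CPM in F1-L. For both genes every F1-P sample was below every B6-Y sample, and for Pacsin1 every B6-O sample was too. In CMPs Cox6a2 ran from 0.361 to 3.41 CPM, and Pacsin1 was 0.384, 2.12 and 2.51 CPM in F1-P and 0.227, 0 and 0.149 CPM in F1-L.

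**Figure D1:**
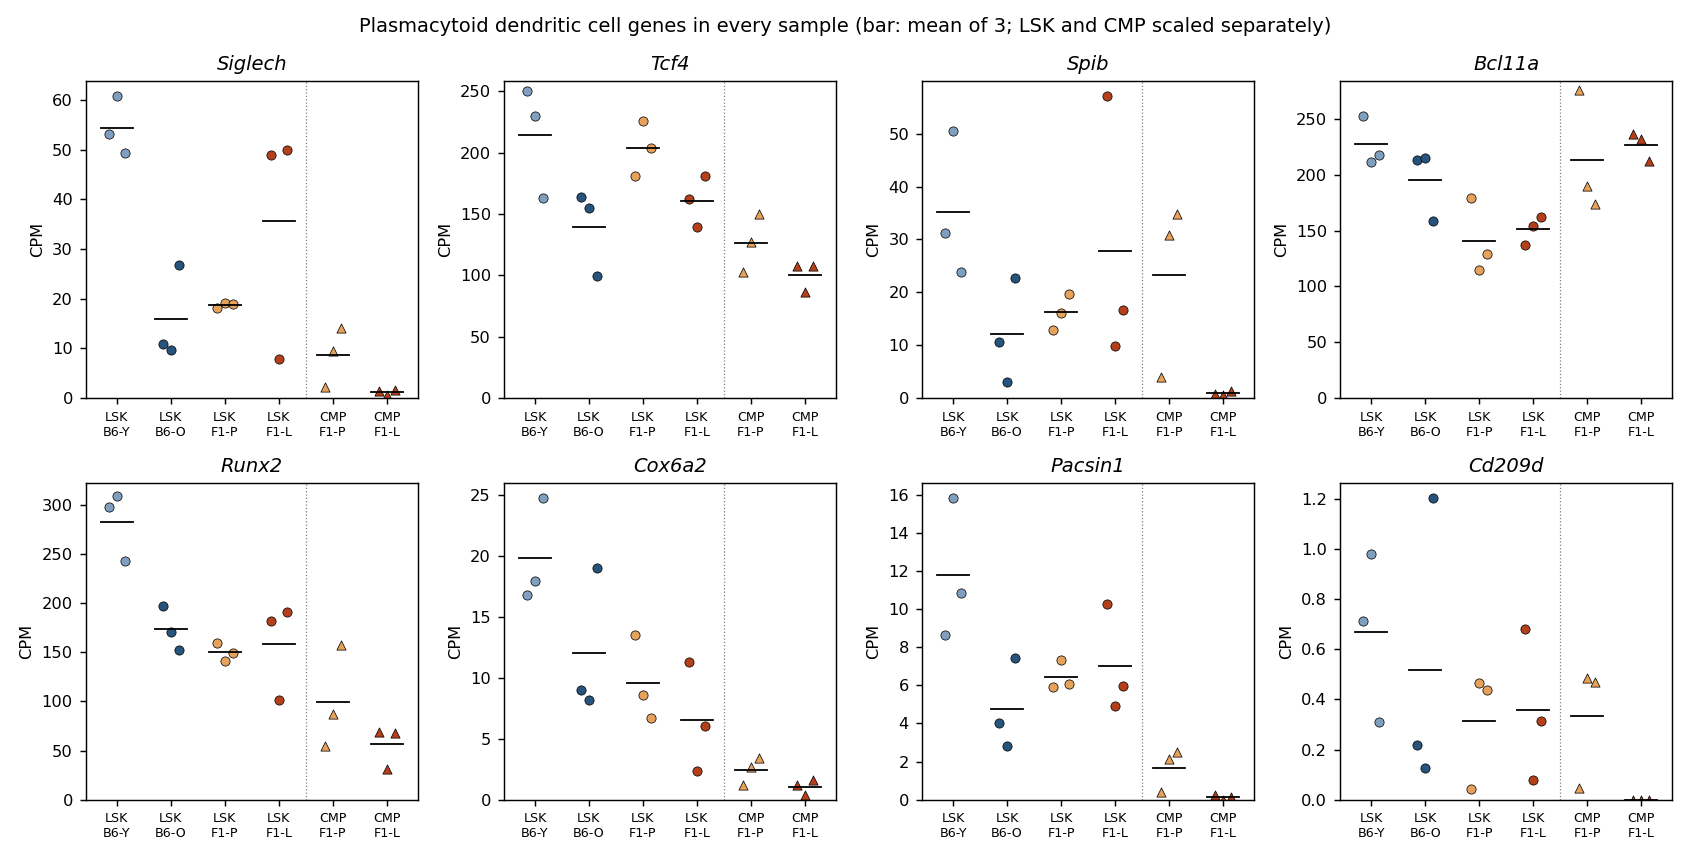
CPM (vertical axes, from 0) of the 8 pDC genes in each of the 12 LSK samples (circles) and 6 CMP samples (triangles), with the mean of each group of 3 as a bar. For Siglech the 3 B6-Y samples sit between 49.3 and 60.8 CPM and the 3 F1-P samples between 18.0 and 19.1 CPM, while F1-L replicate 2 lies at 7.75 CPM, far from the other two F1-L samples.

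Set against related genes per kilobase of merged exon, the members differed in how they stood to their relatives. In B6-Y LSK the mean levels were 32.01 CPM per kb for Runx2, 32.2 for Runx3 and 15.3 for Runx1. Tcf4 stood at 7.83 CPM per kb in the same samples, against 67.2 for the E protein gene Tcf3 and 8.46 for Tcf12. Spib was at 12.3 CPM per kb against 42.6 for Spi1, which encodes PU.1, and 0.4999 for Spic. Bcl11a, at 17.3 CPM per kb, exceeded Bcl11b at 1.46, whereas Cox6a2 was at 29.2 against 128 for the general isoform Cox6a1, and Pacsin1 at 1.80 against 14.8 for Pacsin2 and 0.216 for Pacsin3. Siglech was at 16.1 CPM per kb and Siglec1, the macrophage sialoadhesin, at 0.175, while Cd209d and Cd209a were at 0.726 and 1.17. Levels per kb rest on the union of annotated exons, which is long for Tcf4.

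The contrast in which limma called most members was strain at 12 weeks, which asks how prediseased NZBW/F1 LSK differ from young C57BL/6 LSK. Of the 7 members tested, 5 fell in F1-P and none rose by limma (adjusted p of at most 0.05 over all genes tested and a fold change above 1.5), where 6.18% of the 14380 genes tested were called lower and 16.2% were called in either direction. Siglech fell most of the 5, by 1.49 ± 0.14 (SE) on the log2(CPM + 1) scale, to 34.3% of the B6-Y mean (adjusted p = 0.000349). Spib fell by 1.025 ± 0.28 (adjusted p = 0.0427), Cox6a2 by 1.01 ± 0.27 (adjusted p = 0.0383), Runx2 by 0.91 ± 0.14 (adjusted p = 0.00411) and Bcl11a by 0.71 ± 0.18 (adjusted p = 0.0348). Pacsin1 missed the threshold at -0.74 ± 0.24 (adjusted p = 0.068), and Tcf4, at -0.06 ± 0.19 (95% interval -0.49 to 0.37), showed no difference larger than its replicate spread.

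Every F1-P sample was below every B6-Y sample for 6 of the 7 members, which was so for 18.1% of all genes tested. edgeR's likelihood ratio test on recovered reads called 6 of 7 lower, Pacsin1 included, in a comparison where it called 19.1% of genes. DESeq2 also called 6 members and 19.6% of genes, edgeR's quasi-likelihood test 4 members and 15.9%, and limma with the replicate number as a block 6 members and 19.4%. The median log2 difference of the 7 members was -0.91, beside -0.04 over all genes tested. When all 12 LSK samples shared 1 estimate of spread, limma called Bcl11a and Runx2 alone of the members and 16.2% of all genes. Siglech was then at adjusted p = 0.0967 by limma. Leaving out 1 sample at a time left 2 to 4 members called, always with Siglech and Runx2 among them. Those fits called from 927 of 13852 to 2229 of 13901 genes.

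**Figure D2:**
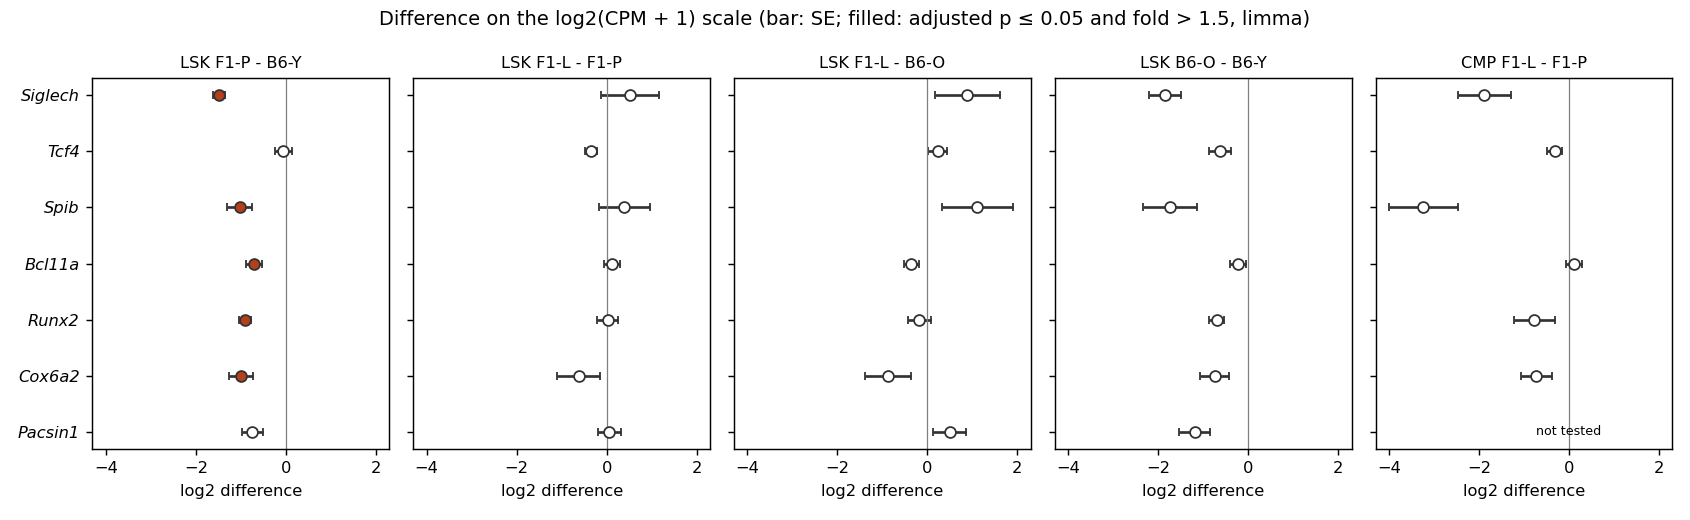
Difference between group means on the log2(CPM + 1) scale (horizontal axes) for the members tested (7 in LSK, 6 in CMPs) in 5 comparisons of 3 against 3 samples, with SE as bars and filled points past the limma threshold. Filled points occur in the F1-P against B6-Y panel alone, for Siglech, Spib, Bcl11a, Runx2 and Cox6a2, and Tcf4 there lies at -0.06.

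Other genes of the pDC programme did not all follow in the same contrast. Of 8 pDC surface genes tested, 3 fell, namely Cd300c by 2.47, Lair1 by 1.04 and Ptprs by 0.62 on the log2 scale, and 3 rose, namely Ly6d by 1.04, Ccr9 by 1.35 and Klra17 by 2.49. Ly6d marks lymphoid progenitors committed to B cells or pDCs, and Ccr9 is a chemokine receptor of pDCs and T cell progenitors. Klra17 belongs to the Ly49 receptors, whose near-identical members and strain differences make its count uncertain. All reads were aligned to mm10, and an effect of strain sequence differences on the counts of other genes, members included, was not tested. Ptprs, at adjusted p = 0.04996, was not called by the likelihood ratio test. Ptprs, Ly6d and Bst2 were the most abundant of the list, whose median was -0.26.

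Among 8 genes of nucleic acid sensing and interferon induction, 2 fell by limma and none rose. Irf8, a factor of dendritic cell and monocyte development, was 379, 319 and 350 CPM in B6-Y against 201, 177 and 214 CPM in F1-P, a fall of 0.82 ± 0.14 (adjusted p = 0.00604). Tlr7, the endosomal RNA sensor, was 25.9, 27.3 and 28.5 CPM in B6-Y against 21.5, 15.5 and 16.4 CPM in F1-P, a fall of 0.60 ± 0.17 (adjusted p = 0.0443). The groups did not overlap for either gene. Tlr9 (-0.98, adjusted p = 0.051) and Irf7 (-0.71, adjusted p = 0.0587) missed the limma threshold, and the likelihood ratio test called both lower. Irf8, Unc93b1 and Pld4 were the 3 most abundant genes of the list, and its median was -0.43.

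In the network around E proteins, 10 genes were tested, of which Id2 rose and Flt3 fell. Id2 was 15.7, 33.6 and 24.1 CPM in B6-Y against 71.6, 74.8 and 53.2 CPM in F1-P, a rise of 1.45 ± 0.27 (adjusted p = 0.00883). Flt3, the receptor for the cytokine that drives dendritic cell development, was 715, 732 and 779 CPM in B6-Y against 599, 298 and 337 CPM in F1-P, a fall of 0.92 ± 0.26 (adjusted p = 0.0492). Flt3, Ikzf1 and Tcf3 were the most abundant of the list, and the median of the 10 was -0.15. Of 6 other pDC-enriched genes tested, Smim5 fell by 1.71 and Mzb1, an ER protein that plasma cells also express, rose by 2.96. Dntt, Mzb1 and Rnase6 were the most abundant of those, and their median was -0.39.

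**Figure D3:**
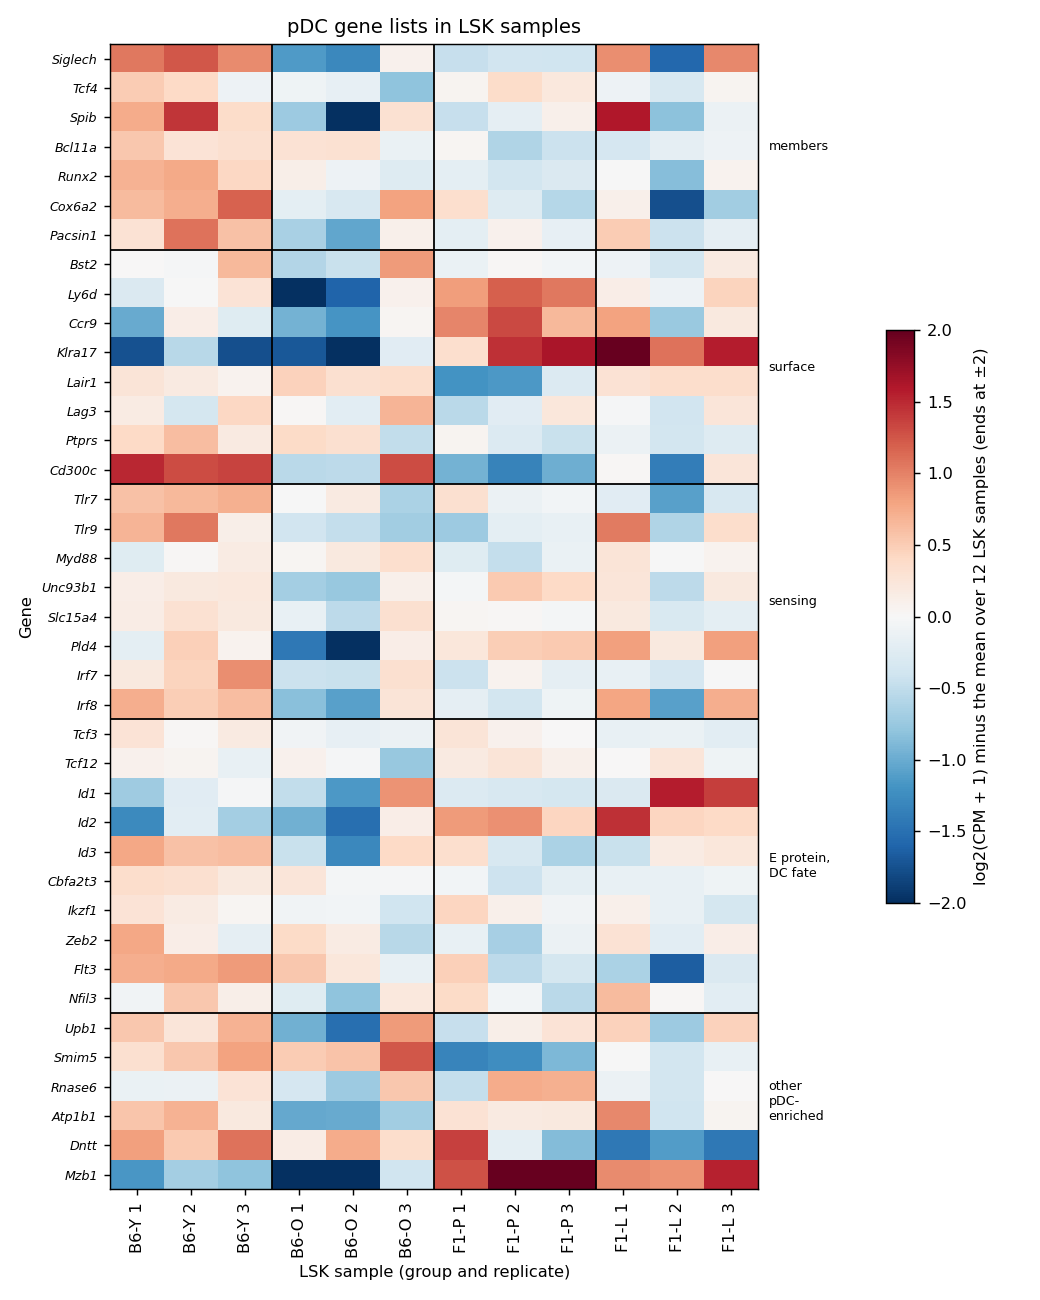
log2(CPM + 1) of 39 genes of the pDC lists (rows, with a mean of at least 1 CPM) in the 12 LSK samples (columns), each minus its mean over the 12 samples, on a colour scale that ends at ±2. Rows of Siglech, Cd300c and Irf8 are high in B6-Y and low in F1-P, rows of Klra17, Ccr9 and Mzb1 are high in F1-P, and the F1-L replicate 2 column is low for Siglech, Cox6a2 and Flt3.

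Markers of other cell types moved between F1-P and B6-Y as well. All 8 plasma cell markers rose (Jchain, Derl3, Prdm1, Tnfrsf17, Xbp1, Irf4, Fkbp11 and Sdc1), their sum lying between 14448 and 37445 CPM in F1-P and between 755 and 1940 CPM in B6-Y, with Jchain the most abundant. Of 7 T and NK cell markers 6 rose (Ncr1, Gzma, Klrb1c, Cd3g, Cd3d and Cd3e), with sums of 194 to 249 CPM against 43.5 to 73.9 CPM, and Ncr1 rose most, by 3.94. Of 9 conventional dendritic cell markers tested, Clec9a, Clec10a and Cd209a fell by 1.55, 1.54 and 1.18, and Cd74, the class II invariant chain, rose by 2.98. Of 12 B cell and pro-B cell markers Cd79a and Cd79b rose, none of 8 neutrophil markers and none of 4 osteoblast and stromal markers tested passed (2 of them, Col1a2 and Cxcl12, rose by the likelihood ratio test), and 1 of 6 macrophage markers (Cd5l) fell. Of 6 monocyte markers Ly6c2 rose and Cx3cr1 fell, and among 8 LSK and progenitor gate genes Ly6a rose and Cd34, Hlf and Meis1 fell. The part of these cells in the member differences was not tested. With the scaling recomputed without immunoglobulin genes, which leaves the cell make-up as it is, limma called 5 of 7 members and 16.2% of all genes.

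Disease stage in NZBW/F1 LSK gave no call among the members. Of 7 tested, 0 passed in F1-L against F1-P by limma, which called 4 genes in all, or 0.0279%, and 0 passed by the likelihood ratio test, which called 4.58%, while 1 member had an unadjusted p below 0.05, as did 12.8% of genes. That member was Tcf4, at -0.34 ± 0.14 (adjusted p = 0.362), with the highest F1-L sample level with the lowest F1-P sample. Siglech differed by 0.52 ± 0.64, with a 95% interval of -1.01 to 2.04, and Spib by 0.40 ± 0.57, with an interval of -0.95 to 1.74, so differences of either sign lay within both intervals. Without F1-L replicate 2 the Siglech difference was 1.36 and that of Spib 0.92, still not called. Over all samples left out 1 at a time, Siglech ran from 0.0889 to 1.36 and Spib from -0.29 to 0.92. Bcl11a (0.12), Pacsin1 (0.06), Runx2 (0.02) and Cox6a2 (-0.62) also missed the threshold.

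The same F1-L library was low for a wider set of genes than the members. Irf8 was 106 CPM in F1-L replicate 2 against 394 and 378 CPM in the other two, Flt3 was 137 against 276 and 353 CPM, and Mpo was 369 against 1115 and 1447 CPM. Its total of 26269954 reads was within the range of the LSK libraries, and Kit, at 442 CPM, and Hlf, at 155 CPM, were the highest of the 3 F1-L samples. In this contrast none of the pDC-related or other cell type lists held a gene called by limma, while the likelihood ratio test called all 8 neutrophil and all 7 macrophage markers higher in F1-L and 4 of 12 B cell markers lower. It also called 1 of 6 monocyte markers (Fn1) and 1 of 9 conventional dendritic cell markers (H2-Aa) higher and 2 of 8 plasma cell markers (Sdc1 and Jchain) lower. Of the pDC lists that test called Lair1, Id1 and Smim5 higher and Ly6d and Dntt lower. Neutrophil sums were 11873, 4754 and 1915 CPM in F1-L and 288, 500 and 1235 CPM in F1-P. Their part in the member values was not tested.

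At 28 to 36 weeks, where strain and lupus cannot be told apart, no member was called between F1-L and B6-O. Of the tested members 0 of 7 members passed in F1-L by limma, where 11.6% of 14381 genes were called, or by the likelihood ratio test, where 15.2% were, and no member had every F1-L sample on one side of B6-O, as 37.4% of genes did. The fitted differences ran from -0.88 for Cox6a2 to 1.11 for Spib, with SEs of 0.51 and 0.79. Leaving out 1 sample at a time gave ranges of -1.33 to -0.40 for Cox6a2, 0.42 to 1.71 for Spib and 0.45 to 1.72 for Siglech, none called. In the wider lists Klra17 rose by 2.89 and Mzb1 by 3.44, and Smim5 fell by 0.95 and Dntt, the terminal transferase of lymphoid progenitors, by 1.74. No gene of the sensing list or of the E protein network was called there by limma, and over the pDC lists the likelihood ratio test added Id2 and Atp1b1 as higher. Of the markers of other cells, 6 of 8 plasma cell markers (Jchain, Derl3, Prdm1, Irf4, Xbp1 and Sdc1), 4 of 7 T and NK cell markers (Gzma, Ncr1, Klrb1c and Cd3g) and 3 of 6 monocyte markers (Ly6c2, Fn1 and Ccr2) rose. So did 2 of 7 macrophage markers (Cd5l and C1qa), 2 of 12 B cell markers (Cd79a and Blnk) and 1 of 5 stromal markers (Alpl). Of 8 gate genes Ly6a rose and Cd34, Hlf and Meis1 fell, while 0 of 8 neutrophil and 0 of 9 conventional dendritic cell markers passed. The likelihood ratio test called 7 of 7 macrophage, 6 of 8 plasma cell, 6 of 7 T and NK cell and 4 of 6 monocyte markers higher. It also called 3 of 12 B cell, 2 of 5 stromal, 2 of 9 conventional dendritic cell and 0 of 8 neutrophil markers higher.

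Age in C57BL/6 LSK placed all 7 tested members lower in B6-O, and none was called by limma. That comparison held 0 calls among 14005 genes (0%), and edgeR's quasi-likelihood test also made 0 calls. By limma 927 genes had an unadjusted p below 0.05, as did 5 of the 7 members, all 5 lower. The differences ran from -0.22 for Bcl11a to -1.85 ± 0.35 for Siglech (adjusted p = 0.241), and the members' median was -0.75 beside 0.02 over all genes. For Siglech, Spib, Runx2 and Pacsin1 every B6-O sample was below every B6-Y sample, which was so for 5.57% of genes. edgeR's likelihood ratio test called Siglech lower (log2 difference -1.80, adjusted p = 0.00453), in a comparison where it called 0.814% of genes. DESeq2, which called 1.48%, called Siglech and Runx2. Of the wider pDC lists, the likelihood ratio test called 1 of 6 other pDC-enriched genes lower. Of 8 genes of nucleic acid sensing and interferon induction, 6 had an unadjusted p below 0.05 by limma, all lower, and the list's median was -0.76.

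B6-O replicate 3 held the highest Siglech, Spib, Cox6a2 and Pacsin1 of its group together with the neutrophil signal. It also held 703 CPM of Cd74, against 95.0 and 53.3 CPM in the other B6-O samples. This library summed to 2479 CPM in plasma cell markers, against 393 and 251 CPM, and to 268 CPM in monocyte markers, against 117 and 74.5 CPM. Without it the Siglech difference was -2.29 ± 0.16 (adjusted p = 0.00807 by limma), and Siglech was then the 1 member called, in a fit that called 48 of 13705 genes (0.35%) against 0 with all samples. In B cell markers 7 of 12 were called lower in B6-O by the likelihood ratio test and 0 by limma. Their sums were 129 to 165 CPM in B6-O and 320 to 794 CPM in B6-Y. The likelihood ratio test also called 1 of 6 macrophage and 1 of 3 stromal markers lower. The part of those cells was not tested.

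The difference between the stage change in NZBW/F1 and the age change in C57BL/6 was tested as an interaction over the 12 LSK samples. None of 7 members was called by limma, which called 0 of 15084 genes (0%), or by the likelihood ratio test, which called 0.0663%, and 4 members had an unadjusted p below 0.05, as did 3.92% of genes. Siglech had the largest estimate of the members, 2.37 ± 0.81 (95% interval 0.61 to 4.14, adjusted p = 0.976), followed by Spib at 2.13 ± 0.92, Pacsin1 at 1.24 ± 0.46 and Runx2 at 0.72 ± 0.31. Each was positive, that is, the F1-L minus F1-P difference lay above the B6-O minus B6-Y difference. The median of the 7 members was 0.72. Markers of some other cells were positive too. All 7 macrophage markers were, with a median of 2.23, and 6 had an unadjusted p below 0.05 by limma. Of 6 monocyte markers 5 were positive, with a median of 1.99, and 4 had such a p. All 8 neutrophil markers were positive, with a median of 1.90 and none with such a p. Of 7 T and NK cell markers 6 were negative. The part of these cells was not tested.

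In CMPs 6 members could be tested for disease stage, and limma called 0 in F1-L against F1-P. It called 1 gene in all, 0.00774% of 12926, which was Col1a1. edgeR's likelihood ratio test, which called 2.38% of genes, called Spib (log2 difference -4.70, adjusted p = 7.58e-05) and Siglech (-2.87, adjusted p = 0.015) lower in F1-L, and DESeq2, which called 2.72%, called the same 2. By limma the differences were -3.24 ± 0.76 for Spib (adjusted p = 0.355) and -1.89 ± 0.59 for Siglech (adjusted p = 0.424). Both genes were below F1-P in every F1-L sample, as were 6.57% of genes tested. Pacsin1 had 8, 48 and 64 reads in F1-P against 5, 0 and 3 in F1-L and was left out by the filter on low values. Without that filter its limma difference was -1.14 ± 0.34 (adjusted p = 0.393).

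The CMP values rested on which F1-P libraries were used. F1-P replicates 2 and 3 were high in Siglech and Spib, and they were also high in B cell markers, with sums of 230.5 and 224 CPM against 89.6 CPM in replicate 1, and in neutrophil markers. The summed macrophage markers were 50.7 and 72.0 CPM against 5.57 CPM, and Cd74 was 90.3 and 116 CPM against 16.7 CPM. Without replicate 1, limma called Spib (-4.17 ± 0.23, adjusted p = 0.00636) and Siglech (-2.55 ± 0.30, adjusted p = 0.0154), in a fit that called 434 of 12774 genes (3.4%), 396 of them lower, against 1 with all samples. The likelihood ratio test called 9 of 12 B cell and 8 of 8 neutrophil markers lower in F1-L, with 2 of 5 conventional dendritic cell markers (H2-Aa and Cd74), 2 of 6 plasma cell markers (Jchain and Irf4), 2 of 4 stromal markers (Col1a1 and Cxcl12), 1 of 6 monocyte markers (Fn1) and 0 of 6 macrophage markers. Of the pDC lists it called Ly6d, Ccr9, Id3, Atp1b1 and Mzb1 lower and none higher. The part of B cells, which also express Spib, was not tested, and the sort was set to remove B220-positive cells.

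**Figure D4:**
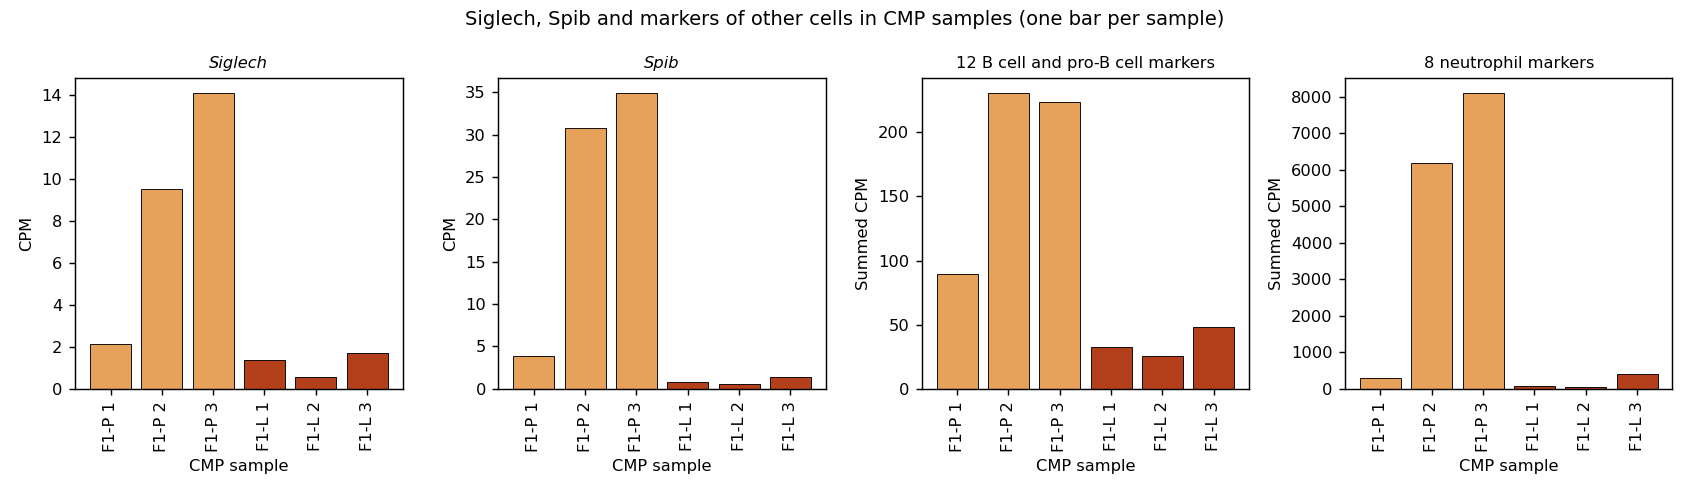
CPM of Siglech and Spib and summed CPM of 12 B cell and pro-B cell markers and 8 neutrophil markers (vertical axes, from 0) in the 6 CMP samples, 1 bar per sample. F1-P replicates 2 and 3 are high in all 4 panels, and F1-P replicate 1 is nearer the F1-L samples, with Siglech at 2.16 CPM and Spib at 3.89 CPM.

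Across LSK samples the members did not vary as 1 group. Over the 12 samples, which share libraries and strain differences, Pearson's r of log2(CPM + 1) was 0.92 between Spib and Pacsin1, 0.84 between Siglech and Pacsin1 and 0.82 between Siglech and Spib. Siglech had r of 0.74 with Runx2 and 0.64 with Cox6a2. Tcf4, in contrast, had r of 0.35 with Siglech and 0.28 with Spib, and Bcl11a had r of 0.19 with Siglech and 0.70 with Runx2.

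Among 11331 genes with a mean of at least 5 CPM, those whose LSK pattern was most like that of Siglech were Irf8 (r = 0.97), Kmo, a kynurenine pathway enzyme (0.96), Mycl, a Myc family gene of dendritic cells (0.93), Lifr (0.91) and Mpeg1 (0.91). For deviations from the group means, pooled over the 12 samples, r with Siglech was 0.97 for Irf8 and 0.97 for Kmo. Within their groups, F1-L replicate 2 was low for both Siglech and Irf8, and B6-O replicate 3 was high for both. In B6-Y and in F1-P, by contrast, replicate 2 held the highest Siglech and the lowest Irf8 of its group. The genes most like Tcf4 were Cd2ap (0.94), Mtfmt (0.94), Zhx3 (0.93), Ythdf3 (0.92) and Cep164 (0.92), none of which is in the pDC lists. These correlations are descriptions over 12 samples, and no test was made of them.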

How the data were processed

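Total RNA of sorted cells was made into TruSeq libraries and sequenced single-end on a NextSeq 500. The authors aligned reads to mm10 with STAR 2.6 and counted genes with HTSeq; per the submitters' processing notes edgeR was also used. The deposited values are a CPM-like signal, reads scaled to an effective library size, and 100% of values were whole multiples of 1 read within 0.01, so reads were recovered. Samples were grouped by title. The tables were scaled separately, gene names came from GENCODE M21, and every per-sample column was used.

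Values were compared with limma 3.58.1 (R 4.3.3; lmFit and eBayes with trend) on log2(CPM + 1), with Benjamini-Hochberg adjustment over all genes of at least 1 CPM in at least 3 samples of the fit. A call needed an adjusted p of at most 0.05 and, except in the interaction, a fold change above 1.5. Intervals of differences are 95%. edgeR 4.0.16 (likelihood ratio and quasi-likelihood) and DESeq2 1.42.0 were run on recovered reads, beside other pseudocounts, filters, scalings, a replicate block and samples left out. The limit for 0 reads is 3 reads, which covers counting error. The main limma test and the likelihood ratio test were first tested on simulated data. This was done for LSK F1-L against F1-P, LSK F1-P against B6-Y and CMP F1-L against F1-P. The other tests, settings and comparisons were not simulated. Members, lists and related genes were chosen with earlier results of these data known. All 8 members were named, and of each other list the genes called by limma and, for the pDC lists, the 3 most abundant. Genes that only the count tests called were not all named. Libraries, promoters and further genes were chosen after their values were seen. Cox6a2 and Tcf4 promoters were not analysed here. No 2 libraries of a group had counts within sampling noise of each other.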

Additional observations from a re-analysis of the deposited data

How the results depend on the processing

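Of 41 log2 differences of single members, 463 of 477 values under other settings kept direction and side of the threshold, 14 changed side and 0 reversed. With 1 sample left out at a time, 254 of 288 values kept both and 16 reversed. In F1-P against B6-Y the calls of Spib, Bcl11a and Cox6a2 were each kept in 1 of 6 such fits. The number of members called in F1-P against B6-Y was 5 and became 2 in a single fit of all 12 LSK samples, 4 by edgeR's quasi-likelihood test (which called 15.9% of all genes), 6 by its likelihood ratio test (19.1%) or DESeq2 (19.6%), and 2 to 4 when a sample was left out. In B6-O against B6-Y it was 0 and became 1 by the edgeR likelihood ratio test, 2 by DESeq2 and 0 to 1 with a sample left out, and in CMP F1-L against F1-P it was 0 and became 2 by either count test and 0 to 2 with a sample left out. In the other 3 comparisons it was 0 throughout. Reversals occurred for 8 uncalled differences, always with a sample left out. In LSK F1-L against F1-P the ranges were -0.29 to 0.92 for Spib, -0.0102 to 0.31 for Bcl11a, -0.14 to 0.31 for Runx2 and -0.21 to 0.25 for Pacsin1. Elsewhere they were -0.35 to 0.11 for Runx2 in F1-L against B6-O, -0.24 to 0.0645 for Tcf4 in F1-P against B6-Y, -0.0134 to 0.32 for Bcl11a in CMPs and -0.32 to 0.61 for Cox6a2 in the interaction. The cause was not tested.

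Groups share replicate numbers, and the sample titles do not say whether the numbers pair the samples. Correlations of deviations of same-numbered samples were 0.33, 0.32 and 0.07 for F1-P against B6-Y and -0.45, -0.32 and 0.62 in CMPs. For B6-O against B6-Y they were 0.47, -0.36 and 0.32. In the LSK comparisons of F1-L with F1-P and with B6-O they lay between -0.0426 and 0.0606. Whether same-numbered samples shared a batch is not known from these values. With the replicate block, members called were 6 in F1-P against B6-Y, beside 19.4% of all genes, and 0 in the other comparisons.

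Over all genes, calls in LSK F1-L against F1-P were 4 by limma, 0 with the replicate block, 26 in the single fit, 657 by the likelihood ratio test and 734 by DESeq2. In B6-O against B6-Y they were 0, against 1 with either other scaling, 3 with robust eBayes, 13 in the single fit, 114 and 207 by those count tests, and in CMPs 1, against 0 with the block or a mean of at least 5 CPM, 308 and 351. In F1-L against B6-O a mean of at least 5 CPM left 978 of 1667, and the interaction went from 0 to 10 and 29. With a sample left out they ran from 0 to 25, 0 to 48, 0 to 434, 448 to 2285 and 0 to 1 in that order, and from 927 to 2229 in F1-P against B6-Y (2331 with all samples).

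The scaling alternatives moved the median difference of all genes by under 0.1 on the log2 scale. Low reads kept Cd209d and, in CMPs, Pacsin1 out of the filtered tests, and without the filter neither was called.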
